A study of Mus musculus with 12 samples.

Results

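Visceral smooth muscle is the contractile tissue of the gut wall, and 10 genes of its contractile machinery were followed in the duodenum and liver of mice given corticosterone (CORT). The members were Acta2, Actg2, Myh11, Tagln, Des, Cnn1, Mylk, Smtn, Synpo2 and Lmod1, taken by gene name from the 55416 genes of the duodenum table, and each name was found in 1 row. All 10 passed the filter on low values in duodenum, where 13607 genes were tested. In liver 5 of the 10 passed it, among 11699 genes tested.

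The series held 12 RNA-seq libraries, 3 for each of the 4 groups: CORT-treated duodenum, vehicle (Veh) duodenum, CORT-treated liver and Veh liver. All mice were male C57BL6/J, aged 8 weeks at the start, and carried no transgene or deletion by the sources used here. They were injected s.c. every day for 8 weeks with CORT at 40 mg/kg or with the same solvent (water with DMSO and Tween-80) alone, so the injections and the solvent were common to all groups. The libraries were made from 50 mg pieces of frozen whole tissue and are labelled as biological replicates, and whether duodenum and liver libraries with the same number came from 1 mouse is not stated.

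Smooth muscle contracts when a rise in calcium activates myosin light-chain kinase, which phosphorylates the regulatory light chain of smooth muscle myosin and lets it pull on actin. The smooth muscle actins and myosin form the filaments, calponin, transgelin and smoothelin bind actin, and desmin forms intermediate filaments that tie the contractile bundles together. In the gut these cells make up the muscle layers that drive peristalsis, and they also surround blood vessels, while many of the genes are switched on together by serum response factor (Srf) and its partner myocardin through a short DNA element, the CArG box. Corticosterone is the main glucocorticoid hormone of rodents, and glucocorticoid excess is known for wasting skeletal muscle.

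Levels are given as TPM, a measure of transcript abundance scaled by transcript length and by the total of the library, on which genes can be compared with each other. TPM do not keep sequencing depth, so no counting error can be given and the precision rests on the spread of 3 libraries a group. Fkbp5, a gene strongly induced by glucocorticoids, had 379, 281 and 252 TPM in CORT duodenum against 14.0, 8.68 and 23.3 TPM in Veh duodenum, which matches the labels. The epithelial list (Epcam, Vil1 and 8 others) summed to 8717 to 12050 TPM in the duodenum libraries and to 145 to 416 TPM in the liver libraries. The hepatocyte list (Alb and 5 others) summed to 94560 to 124700 TPM in liver. In duodenum it summed to 15590 to 21490 TPM in CORT and 8180 to 12160 TPM in Veh, nearly all from Apoa1 (means 19500 and 9631 TPM). One feature set duodenum libraries apart: 39 genes of pancreatic acinar cells summed to 9446 TPM in Veh library 1, 56030 in Veh library 2 and 50920 in Veh library 3, against 9920 to 12400 TPM in the CORT libraries. Zg16, Reg1 and Dmbt1, picked out after their values were seen, carried 8583 to 12350 TPM of these totals in every library, and the other 34 acinar genes tested summed to 712 to 971 TPM in CORT and to 702, 47450 and 38570 TPM in Veh libraries 1, 2 and 3. Ctrb1, a chymotrypsinogen chosen in the same way, was at 0.28 to 0.76 TPM in CORT and at 14.5, 7733 and 6026 TPM in Veh. In liver, Veh library 2 and CORT library 3 were the highest of their groups for several members. Results are therefore also given without these libraries.

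The CArG box, CC followed by 6 letters that are A or T and then GG, is the element through which Srf reaches smooth muscle genes, so the promoters of the members were searched for it. RefSeq promoter windows (build GRCm38.p6, 250 bases before to 50 bases after each gene's start) were found by gene symbol for 7 members, and Actg2, Myh11 and Tagln had none in the table used here. No exact match was found in the 7 windows, against 1.63% of all 32851 windows. With up to 1 letter off, 2 of the 7 windows (28.6%) held a match, against 21.1% of all windows. Both were shown with the 10 matching letters in capitals, since Acta2 is among the most abundant members and Lmod1 among the least, and Myl9, the regulatory light chain whose profile came closest to that of the members, was added. The pattern is its own reverse complement, so both strands were read at once.

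Acta2 at chr19:34255438-34255467, minus strand, motif beginning 84 bases before the start: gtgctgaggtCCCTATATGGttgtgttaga
Acta2 at chr19:34255388-34255417, minus strand, motif beginning 34 bases before the start: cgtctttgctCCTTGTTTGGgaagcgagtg
Lmod1 at chr1:135324614-135324643, plus strand, motif beginning 189 bases before the start: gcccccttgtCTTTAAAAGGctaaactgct
Lmod1 at chr1:135324639-135324668, plus strand, motif beginning 164 bases before the start: ctgctctgtaCTAAATTTGGtcacgcagcg
Myl9 at chr2:156775293-156775322, plus strand, motif beginning 161 bases before the start: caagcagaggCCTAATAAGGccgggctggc
Myl9 at chr2:156775355-156775384, plus strand, motif beginning 99 bases before the start: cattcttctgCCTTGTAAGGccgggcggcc

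The windows of Des, Cnn1, Mylk, Smtn and Synpo2 held none of these letters, which says nothing of elements outside 300 bases. The first Myl9 match is exact and the other 5 matches are 1 letter off.

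In duodenum the 10 members were fitted lower in CORT than in Veh, but none passed the test. On the log2(TPM + 1) scale the median of their fold changes was -0.61, against -0.012 over all 13607 genes tested, and 51.5% of those genes were fitted below 0. The members ranged from -0.04 (Synpo2) to -1.16 (Actg2). A call required a limma adjusted p no higher than 0.05 together with a change of more than 1.5-fold, and 0 of 10 members were called, against 2.15% of all genes. At an unadjusted p under 0.05, 4 members were lower (Acta2, Actg2, Des and Smtn), against 10.5% of all genes lower at that level, and 3 of the 4 also had a fold change over 1.5. The lowest Veh value lay above the highest CORT value for 3 members (Actg2, Des and Smtn), against 14.3% of all genes in that direction, and 0 members were separated in the other direction, against 12.2%. Fewer smooth muscle cells in the piece of tissue and less RNA per cell cannot be told apart in whole tissue.

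The summed level of the 10 members was 489, 415 and 617 TPM in the CORT libraries 1, 2 and 3 and 809, 1080 and 574 TPM in the Veh libraries, or 0.0417% to 0.0621% and 0.0576% to 0.108% of the table. Thus Veh library 3 lay inside the CORT range, and the gap between groups came from Veh libraries 1 and 2. Veh library 2 held the highest value for 6 members and Veh library 1 for the other 4. CORT library 2 held the lowest value for 7 members, Veh library 3 for 2 and CORT library 1 for 1.

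**Figure D1:**
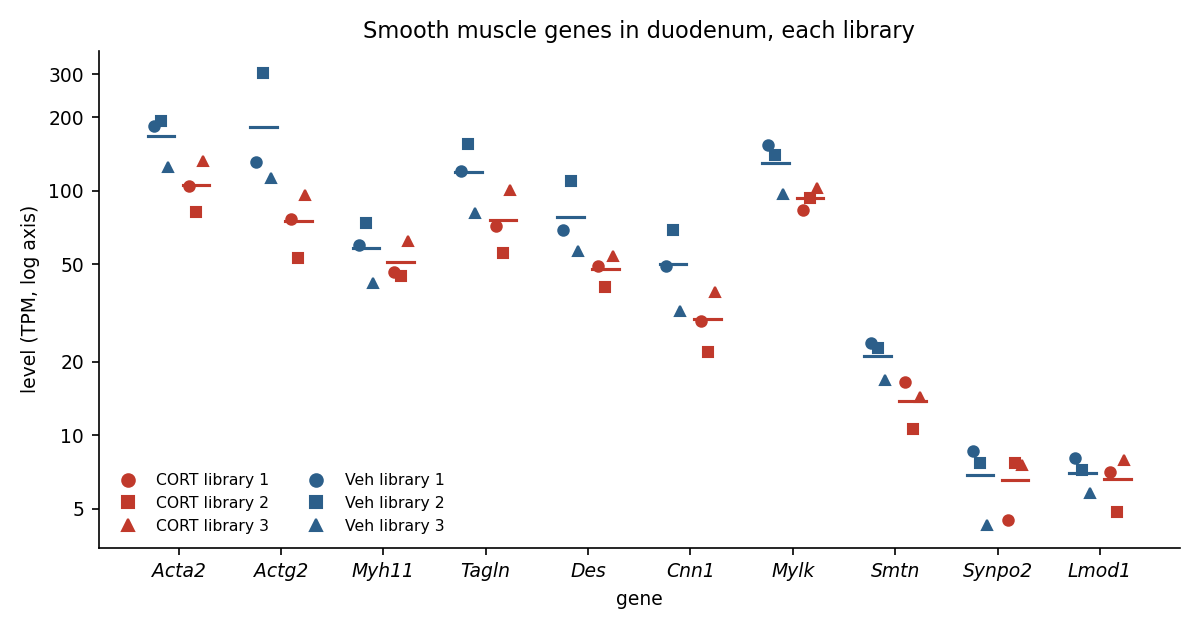
Level of each member in the 6 duodenum libraries (TPM, log axis), with Veh on the left and CORT on the right of each gene, marker shape giving the library number and the short line the mean of 3. Actg2, Des and Smtn are the genes whose groups do not overlap, and Actg2 in Veh library 2 is the highest point at 303 TPM.

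The thin filaments were considered first. Acta2 (ENSMUSG00000035783) encodes smooth muscle α-actin, which is found in vascular and visceral muscle and in myofibroblasts. Its level was 104, 81.7 and 132 TPM in CORT libraries 1, 2 and 3 and 183, 192 and 126 TPM in Veh libraries 1, 2 and 3. The groups overlapped by a single pair, since CORT library 3 lay above Veh library 3. The means were 106 ± 25.3 and 167 ± 36.3 TPM (SD, n = 3), and the log2 fold change of -0.65 (SE 0.23) had an unadjusted p of 0.0270 and an adjusted p of 0.197 by limma.

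Actg2 (ENSMUSG00000059430) encodes smooth muscle γ-actin, the actin typical of the muscle of gut and other hollow organs. It was at 76.7, 53.3 and 96.4 TPM in CORT and at 132, 303 and 113 TPM in Veh. The groups did not overlap, and Veh library 2 was far above the other Veh libraries. The log2 fold change was -1.16 (SE 0.39, unadjusted p 0.0214, adjusted p 0.181 by limma), the largest in size among the members, and without Veh library 2 it was -0.73. The means were 75.5 ± 21.6 TPM in CORT and 182 ± 105 TPM in Veh (SD, n = 3).

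The coding sequences of Acta2 and Actg2, 1134 and 1131 bases long, were 84.2% identical in the GENCODE transcripts of the earlier mouse build, and no stretch of 50 bases was shared by the whole transcripts. Within a library the ratio of Actg2 to Acta2 does not depend on how the library was scaled. It was 0.735, 0.653 and 0.729 in the CORT libraries and 0.717, 1.57 and 0.902 in the Veh libraries, so the groups overlapped. The log2 ratio was -0.51 ± 0.095 in CORT and 0.0086 ± 0.58 in Veh (SD, n = 3), and an exact permutation test of the difference (two-sided) gave p = 0.3, where the smallest p that 3 against 3 libraries allow is 0.1. The ratio of Actg2 to Acta2 thus varied within Veh by more than it differed between groups. Acta2 is found in vascular and visceral muscle, so this ratio does not separate them.

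Tagln (ENSMUSG00000032085) encodes transgelin, or SM22α, an actin-binding protein of smooth muscle. It was at 71.5, 55.9 and 101 TPM in CORT and at 121, 155 and 81.0 TPM in Veh. CORT library 3 exceeded Veh library 3, so the groups overlapped. Tagln had a log2 fold change of -0.63 (SE 0.29, adjusted p 0.305 by limma), and of -0.415 without Veh library 2.

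Cnn1 (ENSMUSG00000001349), which encodes calponin 1, an actin-binding protein that restrains the myosin ATPase, had the same order of libraries. Its level was 29.3, 21.8 and 38.6 TPM in CORT and 49.4, 69.4 and 32.3 TPM in Veh. The highest CORT and the lowest Veh library again crossed. A log2 fold change of -0.70 was fitted (SE 0.31, adjusted p 0.276 by limma), and -0.44 without Veh library 2.

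Smtn (ENSMUSG00000020439) encodes smoothelin, a cytoskeletal protein of fully contractile smooth muscle. It was at 16.5, 10.6 and 14.4 TPM in CORT and at 23.8, 22.8 and 16.9 TPM in Veh. The groups did not overlap, but the nearest values, 16.5 and 16.9 TPM, differed by 0.4 TPM. The log2 fold change was -0.58 (SE 0.20, unadjusted p 0.0229, adjusted p 0.185 by limma). This was the lowest unadjusted p after that of Actg2, with a fold change just under the limit of 1.5.

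Lmod1 (ENSMUSG00000048096) encodes leiomodin 1, which nucleates actin filaments in smooth muscle. Its level was 7.08, 4.84 and 7.90 TPM in CORT and 8.07, 7.22 and 5.78 TPM in Veh. The ranges were nearly the same. Its log2 fold change was -0.09, with a 95% interval from -0.56 to 0.39 and an adjusted p of 0.838 by limma.

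The thick filament is represented by Myh11 (ENSMUSG00000018830), the heavy chain of smooth muscle myosin, which is the most specific marker of the smooth muscle lineage. It was at 46.4, 44.9 and 62.1 TPM in CORT and at 59.95, 73.8 and 42.0 TPM in Veh. The lowest value of all was that of Veh library 3, so the groups overlapped fully. The log2 fold change was -0.17 (SE 0.23), with a 95% interval from -0.72 to 0.38 and an adjusted p of 0.716 by limma.

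Myh11 was thus at 51.2 ± 9.50 TPM in CORT and 58.6 ± 15.9 TPM in Veh (SD, n = 3), while Acta2 differed more in its mean. The ratio of Myh11 to Acta2 was 0.445, 0.550 and 0.470 in the CORT libraries and 0.327, 0.384 and 0.335 in the Veh libraries. All 3 CORT ratios lay above all 3 Veh ratios, a log2 difference of 0.48, and the exact permutation test (two-sided) gave p = 0.1, the smallest that 3 against 3 allow. Of 3 ratios examined (Actg2, Mylk and Myh11, each to Acta2), this was the only one whose groups did not overlap. For Mylk to Acta2 the log2 difference was 0.20 and the exact permutation p was 0.4.

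Mylk (ENSMUSG00000022836) encodes myosin light-chain kinase, the switch of smooth muscle contraction. The same gene also gives a longer kinase of endothelial and epithelial cells and the short protein telokin, which a value per gene does not separate. In duodenum it was at 83.3, 93.6 and 103 TPM in CORT and at 154, 140 and 96.8 TPM in Veh. CORT library 3 lay above Veh library 3, and the groups overlapped by that pair alone. The log2 fold change was -0.46 (SE 0.20, unadjusted p 0.0530, adjusted p 0.267 by limma).

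The cytoskeletal anchors differed between themselves. Des (ENSMUSG00000026208), the gene of desmin, was at 49.1, 40.5 and 53.9 TPM in CORT and at 68.9, 109 and 56.7 TPM in Veh. Its groups did not overlap, by a margin of 2.81 TPM. The means were 47.8 ± 6.78 and 78.3 ± 27.6 TPM (SD, n = 3), and the log2 fold change was -0.65 (SE 0.25, unadjusted p 0.0346, adjusted p 0.219 by limma). Without Veh library 2 it was -0.39.

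Synpo2 (ENSMUSG00000050315) encodes synaptopodin 2, or myopodin, which binds actin and α-actinin. It was at 4.51, 7.66 and 7.54 TPM in CORT and at 8.65, 7.68 and 4.28 TPM in Veh. Each group held 1 low library, and the means were 6.57 ± 1.78 and 6.87 ± 2.29 TPM (SD, n = 3). The log2 fold change was -0.04 with a 95% interval from -0.71 to 0.63 (adjusted p 0.955 by limma).

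**Figure D2:**
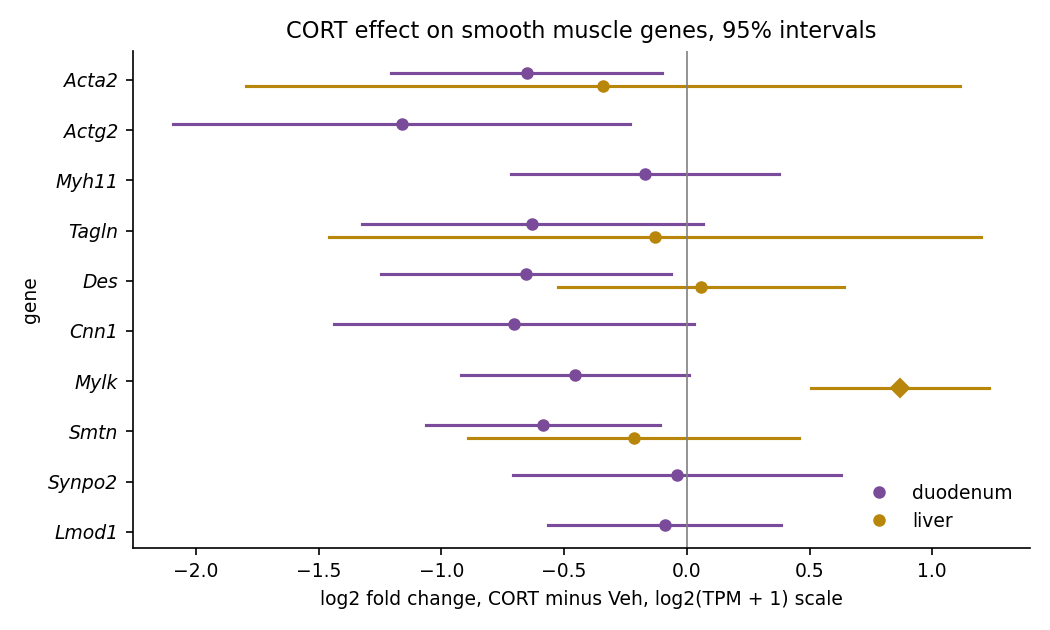
Log2 fold change of each member, CORT minus Veh on the log2(TPM + 1) scale, with its 95% interval from the fit of 3 against 3 libraries, in duodenum (purple) and, for the 5 members tested there, in liver (gold). The diamond marks the single value that passed the test, Mylk in liver at 0.87, and the 10 duodenum values lie between -0.04 and -1.16.

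The 4 members with an unadjusted p under 0.05 had 95% intervals that excluded 0, and the nearest bounds to 0 were -0.10 for Acta2, -0.23 for Actg2, -0.06 for Des and -0.11 for Smtn. The other 6 intervals held 0, and their lower bounds reached -1.44 for Cnn1 and -1.33 for Tagln.

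Leaving out 1 library at a time left 0 members called in each of the 6 fits. Without Veh library 3 the median of the members was -0.79 and 7 members had an unadjusted p under 0.05 with a fold change over 1.5. Without Veh library 2 the median was -0.40 and 1 member did, and without CORT library 2 it was -0.45 and 0 did. With both Veh libraries rich in acinar transcripts left out, the median was -0.71, all 10 members were fitted below 0 and 0 were called, where the lone Veh library 1 is assumed to vary like the CORT group. With the acinar genes removed and TPM rescaled to the rest, the median was -0.65 and again 0 members were called.

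**Figure D3:**
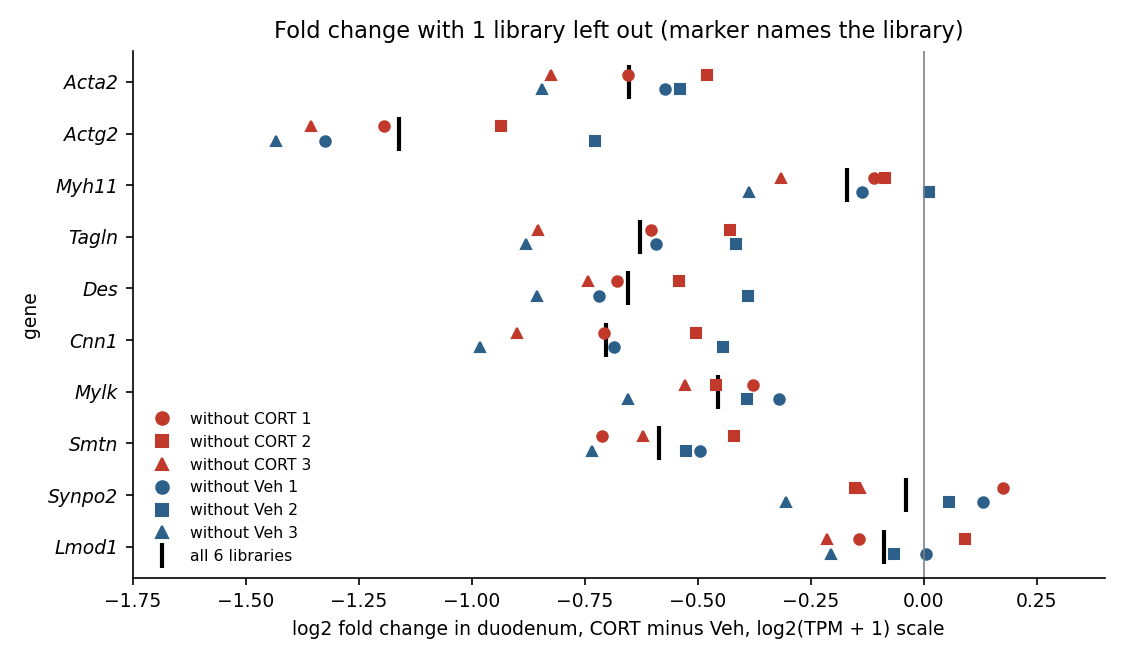
Log2 fold change of each member in duodenum (CORT minus Veh, log2(TPM + 1) scale) with all 6 libraries (black bar) and with 1 library left out, the marker naming the library. Values for Acta2, Actg2, Tagln, Des, Cnn1, Mylk and Smtn stay below 0 throughout, and those of Myh11, Synpo2 and Lmod1 cross 0.

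The order of levels among members was read within each group. In Veh, Actg2 (182 TPM) and Acta2 (167 TPM) stood highest, followed by Mylk (130), Tagln (119), Des (78.3), Myh11 (58.6), Cnn1 (50.4), Smtn (21.1), Lmod1 (7.02) and Synpo2 (6.87 TPM). Neighbours that did not differ beyond the spread of their ratio were Actg2 and Acta2, Mylk and Tagln, and Lmod1 and Synpo2. In CORT the order was Acta2 (106 TPM), Mylk (93.2), Tagln (76.2), Actg2 (75.5), Myh11 (51.2), Des (47.8), Cnn1 (29.9), Smtn (13.8), Lmod1 (6.61) and Synpo2 (6.57 TPM). There, neighbours among the first 4 did not differ beyond their spread, nor did Myh11 and Des, or Lmod1 and Synpo2. Actg2 moved from the first place in Veh to the fourth in CORT, places that its neighbours shared within the spread.

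The members shared a profile over the 6 libraries only in part. After each gene was centred on its own mean (log2 scale), the mean of the 10 members was -0.28, -0.50 and 0.014 in CORT libraries 1, 2 and 3 and 0.34, 0.60 and -0.17 in Veh libraries 1, 2 and 3, so CORT library 3 lay above Veh library 3. Acta2 lay nearest to this mean, with a root mean square distance of 0.105, followed by Tagln at 0.121. Actg2 was farthest at 0.439, with a wider swing in the same direction, and Synpo2 at 0.370 and Lmod1 at 0.270 came next in distance. The median distance of 6666 other genes from the same mean was 0.401. Actg2 was thus no nearer than a typical gene and Synpo2 little nearer, although each member also enters the mean.

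The genes most like the members were sought among 6666 other genes whose mean reached 10 TPM, by the distance of their centred profile from the mean of the members over the 6 libraries. The median distance was 0.401. Nearest was Myl9 (0.0715), the regulatory light chain that Mylk phosphorylates, followed by Flna (0.0738), the actin cross-linker filamin A, and Tpm2 (0.0762), a tropomyosin of the thin filament. Next came Hspb6 (0.098), a small heat shock protein of muscle, Dmpk (0.109), a kinase abundant in muscle, Bnip5 (0.113), Skap2 (0.114) and Tuba1a (0.116), an α-tubulin. The points share libraries and scaling, so this likeness is a description.

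Myl9 was at 149, 115 and 186 TPM in CORT and at 219, 288 and 163 TPM in Veh. Flna was at 63.6, 52.2 and 68.4 TPM in CORT and at 94.3, 106 and 69.0 TPM in Veh. Both were high in Veh libraries 1 and 2, which follows from their choice by profile. Neither was called (log2 fold change -0.56, adjusted p 0.291 and -0.53, adjusted p 0.204 by limma).

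**Figure D4:**
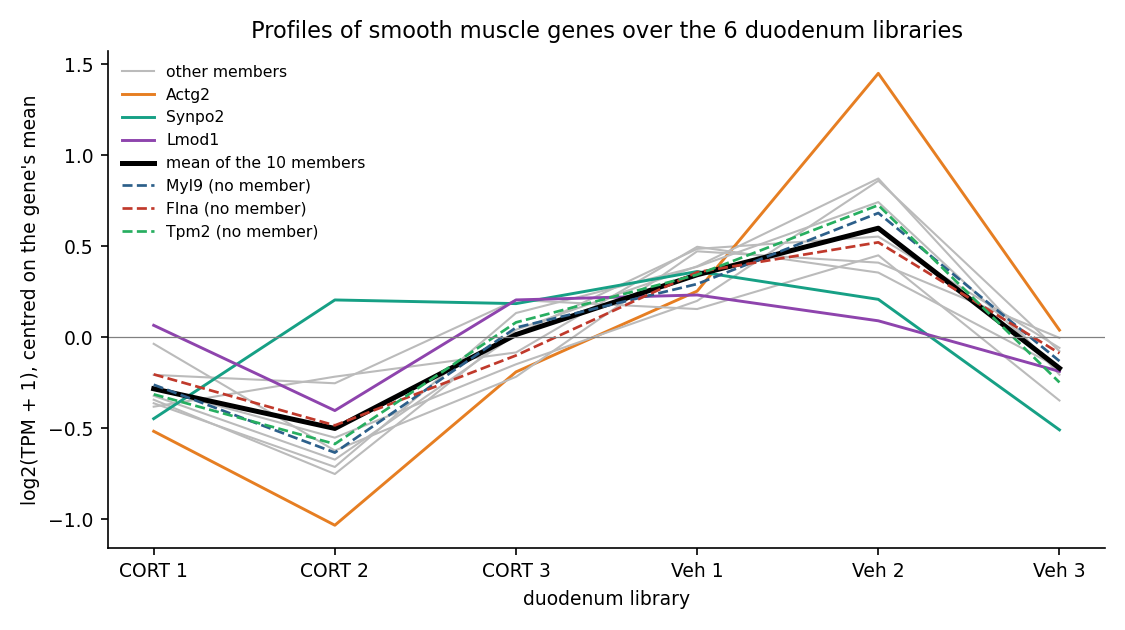
Level of each member over the 6 duodenum libraries as log2(TPM + 1) minus the gene's own mean, with the mean of the 10 members in black and 3 non-members of the nearest profile dashed, lines joining the values of 1 gene only to guide the eye. Myl9, Flna and Tpm2 run close to the black line, and Actg2 swings widest, to 1.45 in Veh library 2.

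The rest of the contractile apparatus was read from lists of genes. Of 30 partners in contraction and its anchors to the membrane, all tested in duodenum, 0 were called, 23 were fitted lower in CORT and 7 higher, and the median log2 fold change was -0.22. The groups were separated downward for 8 and upward for 3, against 14.3% and 12.2% of all genes. At an unadjusted p under 0.05 there were 4 lower and 2 higher, against 1432 and 1186 of the 13607 genes tested. The most abundant of these genes were Myl6, Tpm1 and Myl9. Myl6, the essential light chain shared by smooth muscle and other cells, was at 1658 TPM in CORT and 1680 TPM in Veh, a log2 fold change of -0.03. Tpm1, a tropomyosin of muscle and other cells, was at 171 TPM in CORT and 284 TPM in Veh without overlap, a log2 fold change of -0.73, and missed the threshold (adjusted p 0.0773 by limma). Tpm2 was at 125 TPM in CORT and 187 TPM in Veh, and its groups overlapped (log2 fold change -0.55, adjusted p 0.341 by limma). The 3 genes separated upward were Vcl (log2 fold change 0.44), Tns1 (0.40) and Lpp (0.25), which encode proteins of adhesion sites and were picked out after their values were seen.

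Of 20 genes that set the calcium signal and its control of contraction, 13 were tested and 0 were called by limma. In CORT 1 was lower at an unadjusted p under 0.05, 7 were fitted lower, 6 higher, and the median log2 fold change was -0.01. Rhoa, a small GTPase that raises calcium sensitivity, and Atp2a2, the calcium pump of the sarcoplasmic reticulum, were among the most abundant and had log2 fold changes of -0.13 and -0.07, with overlapping groups. The single gene of this list with separated groups, also picked out after its values were seen, was Ppp1r14a, which encodes CPI-17, an inhibitor of the myosin phosphatase of smooth muscle. It was at 3.31 TPM in CORT and 8.10 TPM in Veh, a log2 fold change of -1.04, and was not called (adjusted p 0.150 by limma).

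Of the listed regulators of the smooth muscle program, 14 of 16 names were in the table and 13 were tested. None was called by limma, 1 was higher in CORT at an unadjusted p under 0.05, 5 were fitted lower, 8 higher, and the median log2 fold change was 0.05. The most abundant were Klf5, Klf4 and Gata6, with log2 fold changes of -0.17, 0.02 and 0.50. Gata6, a transcription factor of gut epithelium and smooth muscle, was separated upward at 48.7 TPM in CORT and 34.1 TPM in Veh and was not called (adjusted p 0.113 by limma). Srf, named for its role, was at 11.97 and 15.4 TPM with overlapping groups (log2 fold change -0.32, adjusted p 0.444 by limma). Myocd, the gene of myocardin, lay near the filter at 1.05 and 0.80 TPM.

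Other actin and myosin genes were compared with those of smooth muscle. Of 5 such genes limma called 0, and 1 was lower in CORT at an unadjusted p under 0.05. Actb was at 2200 TPM in CORT and 2805 TPM in Veh (log2 fold change -0.35), and Actg1 at 1103 and 1611 TPM (-0.54, groups separated downward, adjusted p 0.105 by limma). Myh14 was at 225 and 183 TPM (0.30). Fitted values below 0 were thus also found for actin genes outside smooth muscle.

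Of 15 genes of striated muscle 6 were tested and limma called 0. At an unadjusted p under 0.05, 3 were lower in CORT, against 10.5% of all genes. Des, which smooth and striated muscle both use, was among these 3. It is a member here and had the highest mean of the 6. Acta1, skeletal α-actin, was at 21.6 TPM in CORT and 8.77 TPM in Veh with overlapping groups (log2 fold change 0.93, adjusted p 0.464 by limma). Mylpf, the light chain of fast skeletal muscle, was at 3.84 and 6.33 TPM, separated downward (log2 fold change -0.59, adjusted p 0.0857 by limma). Another 5 of the 15 genes were listed at 0 in every duodenum library.

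Markers of other cells of the gut wall were set beside these values. At an unadjusted p under 0.05 in limma, 2 fibroblast genes and 1 endothelial gene were lower in CORT. At that level 1 gene of neurons and glia and 1 of pericytes were higher, and of the epithelial genes 1 was lower and 1 higher. Interstitial cells of Cajal had 0. Over all 13607 genes tested, 1432 were lower and 1186 higher at that level. Fibroblast markers (9 tested of 10, 0 called) summed to 234 to 287 TPM in CORT and 222 to 308 TPM in Veh, and the most abundant were Fbln1, Dcn and Col3a1, with log2 fold changes of 0.24, 0.07 and -1.10. Col3a1, a fibrillar collagen, was at 18.7 TPM in CORT and 42.8 TPM in Veh without overlap (adjusted p 0.0923 by limma). Markers of the interstitial cells of Cajal, the pacemakers of gut muscle (4 tested of 5, 0 called), summed to 7.87 to 10.8 TPM in CORT and 7.76 to 12.3 TPM in Veh, with Kit at a log2 fold change of -0.06. Enteric neurons and glia (6 tested of 15, 0 called) summed to 95.3 to 124 and 89.7 to 125 TPM. Most of that total was Erbb3, at 76.6 TPM in CORT and 74.1 TPM in Veh, so it says little of the other genes. Erbb3 was also at 21.3 TPM in CORT liver and 24.4 TPM in Veh liver. For these 3 lists the group ranges overlapped and no list total separated CORT from Veh.

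Endothelial markers (8 tested, 0 called) summed to 52.0 to 70.3 TPM in CORT and 58.0 to 67.9 TPM in Veh, and those of pericytes (7 tested of 8, 0 called) to 38.5 to 57.8 and 30.04 to 42.1 TPM. Rgs5, the most abundant pericyte gene, was at 29.5 TPM in CORT and 19.4 TPM in Veh with overlapping groups. In the list of mesothelium and serosal fat (5 tested of 8), Fabp4, a fatty acid carrier of fat and capillary endothelium, rose from 12.4 TPM in Veh to 32.0 TPM in CORT, a log2 fold change of 1.28 (adjusted p 0.0272 by limma). The other 4 genes tested summed to 2.09 to 7.92 TPM in CORT and 0.79 to 8.01 TPM in Veh, with overlapping ranges, and 3 of them were fitted lower in CORT. No gene of this list was listed at 0 in every library. The total of the epithelial list was 10890 to 12050 TPM in CORT and 8717 to 11100 TPM in Veh, with 0 of 10 genes called, 5 fitted lower and 5 higher. Fabp2, a fatty acid carrier of enterocytes, was at 5064 TPM in CORT and 2757 TPM in Veh, and the other 9 genes summed to 5699 to 6740 TPM in CORT and 6513 to 7737 TPM in Veh. Of these, the keratin genes Krt8, Krt18 and Krt19, picked out after their values were seen, were separated downward (log2 fold changes -0.30, -0.60 and -0.30). The share of each cell type in the pieces was not measured, and its part in the lower fitted values of the members was not tested.

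Levels in the tissues were compared for the 5 members that passed the filter in liver as well. In the fit of all 12 libraries, Veh duodenum exceeded Veh liver for Acta2, Des, Tagln, Mylk and Smtn (adjusted p 1.99e-05 or less by limma), where 51.6% of the 14806 genes tested were called higher in duodenum. The log2 difference was 5.79 (SE 0.51) for Acta2, 4.90 (SE 0.25) for Des, 4.05 (SE 0.50) for Tagln, 3.68 (SE 0.18) for Mylk and 2.90 (SE 0.25) for Smtn. Mylk and Tagln had the highest levels of the members in Veh liver, at 9.05 and 7.35 TPM. The other 5 members entered this fit only through their duodenum levels, so their difference was set by the filter and the pseudocount, and no difference is given for them.

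In liver, Actg2, Myh11, Cnn1, Synpo2 and Lmod1 did not reach a mean of 1 TPM in either group and were not tested. Their highest values were 0.69 TPM for Actg2, 1.62 for Myh11, 0.53 for Cnn1, 0.22 for Synpo2 and 0.34 TPM for Lmod1, and each of these was in Veh library 2. Actg2 was listed at 0 in Veh library 1. Veh library 2 was the highest of the 6 liver libraries for 9 members, and Mylk, for which it was the lowest, was the exception.

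Acta2 in liver was at 0.60, 0.75 and 3.65 TPM in CORT and at 0.74, 5.95 and 1.19 TPM in Veh. Tagln was at 3.30, 4.58 and 9.98 TPM in CORT and at 2.47, 14.0 and 5.62 TPM in Veh. Both genes were high in CORT library 3 and Veh library 2 and lower in the other 4 libraries, so that the spread within a group exceeded the difference between groups. The log2 fold changes were -0.34 (SE 0.62) and -0.13 (SE 0.56), and without these 2 libraries that of Tagln was 0.03.

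Des was at 1.49 to 1.80 TPM in CORT and 0.91 to 2.48 TPM in Veh, and Smtn at 1.26 to 1.80 and 1.18 to 3.45 TPM. In both genes the CORT values lay within the Veh range, and the log2 fold changes were 0.06 (SE 0.25) and -0.22 (SE 0.29). Hepatic stellate cell markers, which include genes of the vitamin A-storing cells around the sinusoids, summed to 205 to 292 TPM in CORT and 94.0 to 283 TPM in Veh, again with CORT library 3 and Veh library 2 highest. Pericyte markers summed to 14.7, 16.8 and 33.5 TPM in CORT and 8.03, 32.7 and 12.7 TPM in Veh. The same 2 libraries that were high in Acta2 and Tagln were thus high in both lists, which share the gene Rgs5. The pattern was not particular to them. CORT library 3 and Veh library 2 were also the highest of their groups for fibroblast markers (161 and 149 TPM) and endothelial markers (56.9 and 48.8 TPM). For the hepatocyte list CORT library 1 was instead the highest CORT library (122900 TPM), while Veh library 2 was again the highest Veh library (124700 TPM).

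Mylk was the member that passed the test in liver, 1 of 5 tested, against 6.92% of all genes. It was at 20.1, 17.6 and 14.6 TPM in CORT libraries 1, 2 and 3 and at 8.88, 8.21 and 10.1 TPM in Veh. All CORT values lay above all Veh values, a separation that 20.6% of the genes tested in liver showed in that direction. The means were 17.4 ± 2.73 and 9.05 ± 0.937 TPM (SD, n = 3), and Mylk rose in CORT by a log2 fold change of 0.87 (SE 0.15, 95% interval 0.50 to 1.23, adjusted p 0.0236 by limma). The size of the change varied little, from 0.77 to 0.98 with 1 library left out, but the call was lost when CORT library 1, CORT library 2, Veh library 1 or Veh library 3 was left out (adjusted p 0.0919, 0.0682, 0.0764 and 0.0591), and with the replicate numbers as a block (adjusted p 0.0776).

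**Figure D5:**
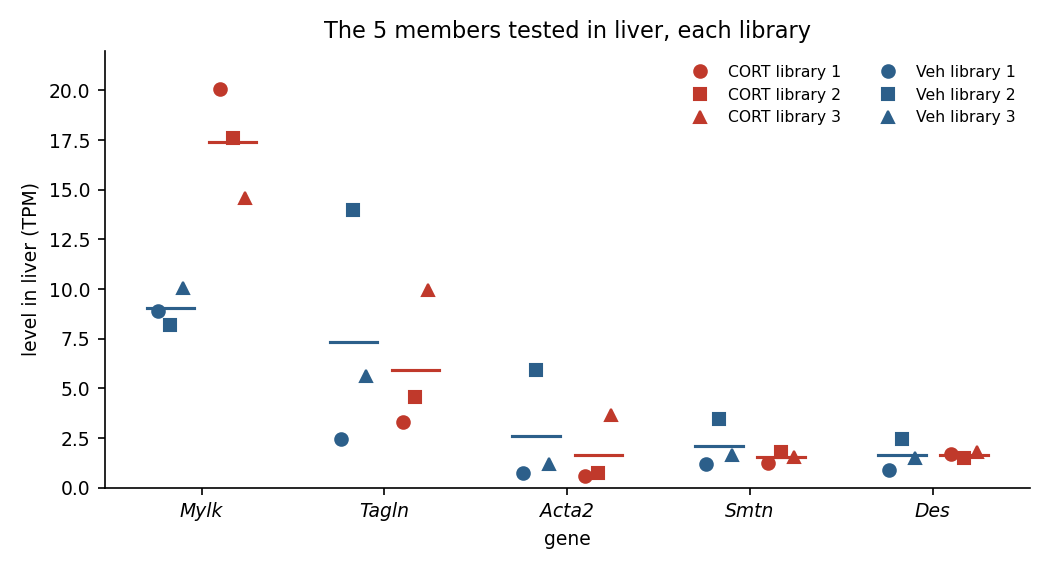
Level of the 5 members tested in liver in each of the 6 libraries (TPM, linear axis from 0), with Veh on the left and CORT on the right of each gene and the short line giving the mean of 3. Mylk is separated, at 14.6 to 20.1 TPM in CORT and 8.21 to 10.1 TPM in Veh, while Tagln and Acta2 are highest in Veh library 2 and CORT library 3.

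Mylk did not follow the other members in liver. Its level was 1.38 to 12 times that of Acta2 in the Veh libraries and 4.003 to 33.4 times in the CORT libraries, against 0.726 to 1.15 times in duodenum. In Veh library 2 and CORT library 3, where Acta2 and Tagln were highest, Mylk was the lowest of its group. Of 8 endothelial markers, 8 were fitted higher in CORT liver and 1 (Pecam1, adjusted p 0.0370 by limma) was called. Over the 11699 genes tested in liver, 6837 were fitted higher and 575 were called higher. The endothelial markers summed to 48.7, 48.0 and 56.9 TPM in CORT and to 18.0, 48.8 and 24.0 TPM in Veh. The part of endothelial or other cells in the level of Mylk was not tested.

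The CORT effect on Mylk differed between the tissues. The fold change was -0.46 in duodenum and 0.87 in liver, and the difference of -1.32 (SE 0.25) passed the test (adjusted p 0.0188 by limma), with 1 called of the 5 members tested in both tissues, against 3.6% of the 14806 genes tested. It ranged from -1.52 to -1.19 with each of the 12 libraries left out, and missed the threshold without liver CORT library 1 (adjusted p 0.0512). For Acta2, Tagln, Des and Smtn the difference lay between -0.71 (Des) and -0.31 (Acta2) and had an adjusted p of 0.325 or more. The 5 members under 1 TPM in liver were left out here, since adding 1 TPM holds their liver effect near 0.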

How the data were processed

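RNA-seq of duodenum and liver was analysed in 12 libraries (3 CORT and 3 Veh a tissue). By the authors' methods, paired-end reads of TruSeq libraries were trimmed (SeqPrep, Sickle), aligned by HISAT2 in orientation mode, assembled by StringTie and quantified by RSEM. The submitters' processing notes name GRCm39, and tool versions are not given in the sources used here. The values deposited by the authors are TPM per gene and library, so depth is unknown. Replicates were not pooled.

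Values were analysed as log2(TPM + 1). A gene was tested where the mean of 1 group or both reached 1 TPM. Each tissue was fitted apart with limma 3.58.1 in R 4.3.3 (lmFit, eBayes with trend), with Benjamini-Hochberg adjustment over all genes tested. A call needed an adjusted p no higher than 0.05 together with a change of more than 1.5-fold. A fit of the 4 groups gave the difference between tissues and treated all libraries as independent. Fold changes on this scale understate changes of low genes, and levels compared between tissues rest on 2 separate tables from 1 pipeline. Ratios of 2 members were compared with exact permutation tests. Neighbours in level were said to differ where the mean log2 ratio exceeded its SD and all 3 libraries had that order.

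The members and lists were chosen with earlier results of these data known. Named were all members, Fkbp5, the genes called and up to 3 of the most abundant in each list described, and the 8 genes with the nearest profile. Others are said to be picked out after their values were seen, or are given by role. Not every gene this rule selects is reported: of the acinar list totals and 4 genes are given, and 1 gene of the calcium list is not reported here. Alternatives were a pseudocount of 0.1, no filter, a replicate block, median-ratio scaling, removal of acinar genes, an unadjusted threshold, no limit on the fold change and leaving out each library. Leaving out pairs of libraries that stood apart was added after seeing the data. Promoter and transcript sequences come from RefSeq (GRCm38.p6) and GENCODE, matched by symbol, and coding sequences were taken as the longest reading frame and aligned with Biopython 1.88.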

Additional observations from a re-analysis of the deposited data

Results flagged for a closer look

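One result met a rule for a closer look, because the CORT effect on a member differed between the tissues by a test of the difference itself. Mylk was lower in CORT duodenum (log2 fold change -0.46, not called) and higher in CORT liver (0.87, called), and the difference was -1.32 (SE 0.25, adjusted p 0.0188 by limma). It was lower in 2 of 3 CORT duodenum libraries than in every Veh duodenum library, and higher in 3 of 3 CORT liver libraries than in every Veh liver library. Groups of 3 libraries are too small for a check of single outlying values.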

How the results depend on the processing

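The count of 0 members called in duodenum held in 13 of 14 alternatives, namely another pseudocount, no filter, median-ratio scaling, acinar genes removed, Veh libraries 2 and 3 left out, the replicate block, no limit on the fold change and each library left out (0 to 0), and was 3 with an unadjusted p. The signs of Acta2, Actg2, Tagln, Des, Cnn1, Mylk and Smtn held in all of their 12 alternatives. With 1 library left out, the log2 fold change ranged from -0.39 to 0.011 for Myh11, from -0.30 to 0.17 for Synpo2 and from -0.21 to 0.090 for Lmod1. In liver the count of 1 fell to 0 with no filter and with the replicate block, and was 0 to 1 with 1 library left out. With no filter more genes enter the adjustment, and a fit without a library has fewer samples. The cause of the lost call was not tested for any of these settings. Liver values with 1 library left out ranged from -0.83 to 0.27 for Acta2, -0.63 to 0.42 for Tagln, -0.15 to 0.28 for Des and -0.43 to 0.081 for Smtn. Without Veh library 2 and CORT library 3 they were 0.031 for Tagln and 0.071 for Smtn, and Acta2 no longer passed the filter. The count of tissue differences was 0 to 1 with 1 library left out. Over all genes, the 292 calls in duodenum became 52 with no filter, 62 with the block, 10 without Veh libraries 2 and 3 and 66 to 237 with 1 library left out. The 810 calls in liver became 283 with no filter, 307 with the block and 247 to 831 with 1 library left out, the highest being that without Veh library 2. Pairing of CORT and Veh libraries by replicate number was not evident within a tissue. Correlations of the deviations of same-numbered CORT and Veh libraries were -0.0039 to 0.0734 in duodenum and -0.12 to 0.0378 in liver. With 3 libraries a group this check cannot exclude pairing, and it did not cover duodenum and liver libraries of the same mouse. The block removed the call of Mylk in liver (adjusted p 0.0776) and kept its tissue difference. TPM hide depth, so how far depth limits the least abundant members is unknown.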
